A study of Mus musculus with 8 samples.

Results

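Gabra2 encodes the alpha 2 subunit of the GABA-A receptor, and its brainstem level in mice of the strains DBA/1 and C57BL/6 was measured by 1 probe, 1 of 60930 on a single-color Agilent lncRNA and mRNA array. The probe was chosen by its gene name, which comes from lists that the study picked on these arrays for a strain difference. The tests of Gabra2 below are thus no independent evidence of a difference. Each array held the brainstem RNA of 1 mouse, with 4 DBA/1 (DBA/1JNCrlj) and 4 C57BL/6 (C57BL/6JNifdc) mice, all of them male, 5 weeks old, untreated except for isoflurane before decapitation, and never exposed to the sound test. The study asked which transcripts differ between DBA/1 mice, which are more prone to audiogenic seizures (AGSz) with seizure-induced respiratory arrest (S-IRA), and the less prone C57BL/6 mice. Since no DBA/1 mouse was tested for seizures, the groups stand for inbred strains and not for animals that had or had not seized. The tissue was the whole brainstem, so fewer cells of a type and less RNA per cell cannot be told apart.

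GABA-A receptors are chloride channels opened by the inhibitory transmitter GABA, and they are built of subunits from several families. The alpha subunit sets much of a receptor's affinity for GABA and its response to benzodiazepines. Receptors that hold alpha 2 sit mainly at synapses, where they are anchored with gephyrin, and are well known from motor neurons and forebrain. The genes Gabrg1, Gabra2, Gabra4 and Gabrb1 lie in a row on mouse chromosome 5. Of the 42 genes of GABA signalling considered here, only Gabra2 had a probe named in the study's lists, which hold transcripts picked for a strain difference. Any probes of the other subunits, transporters and enzymes are unnamed and were not analysed here.

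The probe is shown because every Gabra2 value rests on it. It is a run of 60 bases, printed 5′ to 3′ in lower case.
Gabra2 probe: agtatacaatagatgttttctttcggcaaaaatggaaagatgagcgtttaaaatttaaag
The probe holds 17 G or C bases (28.3%), against a median of 40.0% over the 1194 listed probes, meaning those for which the study's supplementary lists give a gene and a sequence. Only 24 of these, itself included, hold as small a share. The list assigns the probe to the minus-strand transcript NM_008066, at chr5:70961057-71095849, with a spliced length of 2392 bases, and names no other transcript to which the probe would hybridize. The probe's listed genomic block, chr5:71014589-71014636, spans 48 bases, fewer than the probe itself, and lies between the ends of the gene. The exon structure was not used here. In the RefSeq gene table of GRCm38.p6, Gabra2 runs over chr5:70958392-71095849, with the same end as the listed transcript and a start at a lower coordinate.

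As deposited, the Gabra2 spot was brighter on every DBA/1 array than on any C57BL/6 array. The processed signal, which is the spot intensity after background subtraction and detrending within the array, was 51.2, 67.8, 52.9 and 59.9 in C57BL/6 mice 1 to 4. It was 168, 166, 95.6 and 253 in DBA/1 mice 1 to 4. Mice are numbered here by the order of their samples within each strain. The strain ranges did not overlap, and DBA/1 mouse 3 was the dimmest and DBA/1 mouse 4 the brightest of their strain. The DBA/1 mean was 171 ± 64.4 (SD, n = 4) and the C57BL/6 mean 58.0 ± 7.54 (SD, n = 4), a ratio of 2.95.

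The local background beneath the spot did not follow the strain. Its median signal was 16, 14, 13 and 13 in C57BL/6 mice 1 to 4 and 15, 13, 15 and 14 in DBA/1 mice 1 to 4. The median signal of the spot itself was 65, 79, 68 and 73 in C57BL/6 mice and 174, 190, 116 and 296 in DBA/1 mice, in the same order. The spot was therefore 4.06 to 5.64 times as bright as its surroundings on the C57BL/6 arrays and 7.73 to 21.1 times on the DBA/1 arrays. On all 8 arrays it was marked as positive, significant and well above background, and it was saturated on none and an outlier on none.

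The error that the scanner software gives for the spot averaged 10.6% of the signal on C57BL/6 arrays and 10.1% on DBA/1 arrays. The coefficient of variation between mice was 13.01% in C57BL/6 and 37.7% in DBA/1. DBA/1 mouse 3 also had the dimmest array, with a 75th percentile over all probes of 47.1 against 63.03 to 75.03 for the other DBA/1 mice. Over the C57BL/6 arrays it was 67.6 to 109, so the C57BL/6 arrays were on the whole brighter while the Gabra2 spot was dimmer. Divided by the array's 75th percentile, Gabra2 stood at 2.66 ± 0.550 (SD, n = 4) for DBA/1 and at 0.715 ± 0.200 (SD, n = 4) for C57BL/6. On that scale the coefficient of variation was 20.6% in DBA/1 and 27.9% in C57BL/6.

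The place of Gabra2 among the probes of its own array needs no scaling between arrays. In DBA/1 mice 82.6% to 86.5% of the probes were dimmer than Gabra2, at ranks 8198 to 10496 from the brightest. In C57BL/6 mice 67.37% to 75.03% were dimmer, at ranks 15011 to 19811. Gabra2 thus lay in the brighter part of the array in both strains, and the rank ranges did not overlap (exact permutation test, two-sided p = 0.0286, the smallest that 4 against 4 mice can give).

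**Figure D1:**
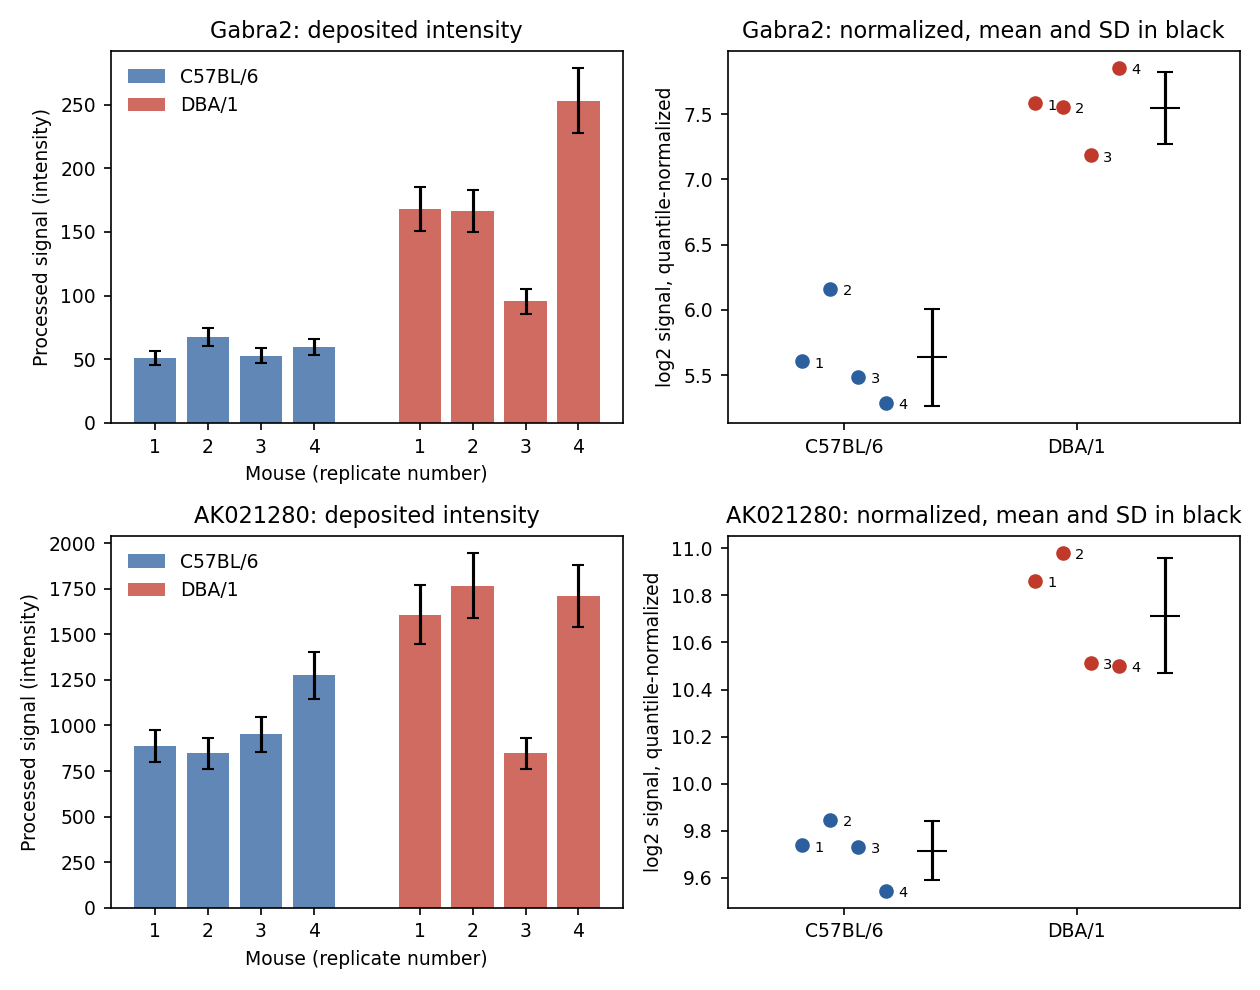
Gabra2 (top) and the neighbouring lncRNA AK021280 (bottom) in each mouse. On the left, bars are the deposited processed signal of each array and error bars the error given by the scanner software. On the right, points are quantile-normalized log2 signals, numbered by mouse, with the mean and SD of each strain in black. The Gabra2 bars of DBA/1 mice, from 95.6 to 253, all exceed those of C57BL/6 mice, from 51.2 to 67.8, whereas for AK021280 the bar of DBA/1 mouse 3 lies among the C57BL/6 bars and the strains separate only after normalization.

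After quantile normalization, which gives every array the same distribution, the log2 signal of Gabra2 was 5.61, 6.16, 5.49 and 5.29 in C57BL/6 mice 1 to 4. It was 7.58, 7.56, 7.18 and 7.86 in DBA/1 mice 1 to 4. The lowest DBA/1 value, that of mouse 3, lay well above the highest C57BL/6 value, that of mouse 2. The DBA/1 mean was 7.54 ± 0.28 (SD, n = 4) and the C57BL/6 mean 5.64 ± 0.37 (SD, n = 4). By limma's moderated test Gabra2 was higher in DBA/1 mice by 1.91 on the log2 scale (standard error 0.22, 95% interval 1.42 to 2.39, adjusted p = 0.000194), or 3.75-fold (2.68 to 5.25). The exact permutation test gave p = 0.0286.

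The test took in probes that 4 or more of the 8 arrays marked as well above background. A probe was called when its fold change reached 2 with an adjusted p under 0.05. Among all 33111 tested probes, 294 (0.888%) were called higher in DBA/1 mice and 976 (2.95%) lower. Of the 31872 probes measured in all 8 mice, 4.17% had every DBA/1 mouse above every C57BL/6 mouse, as Gabra2 did.

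The Gabra2 difference was the 373rd largest of all tested probes in absolute size and the 81st largest of those higher in DBA/1 mice. Set against the 4514 tested probes within 0.5 log2 units of its own mean signal of 6.59, it was the 39th largest in either direction, and 0.864% of them differed at least as much. It was the 13th largest among those higher in DBA/1 mice. The median absolute difference of these equally bright probes was 0.18 log2 units and their 95th percentile 0.80, against 1.91 for Gabra2. Within this range of brightness 36 probes (0.798%) were called higher in DBA/1 mice. These ranks are a description, as probes are not replicates.

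**Figure D2:**
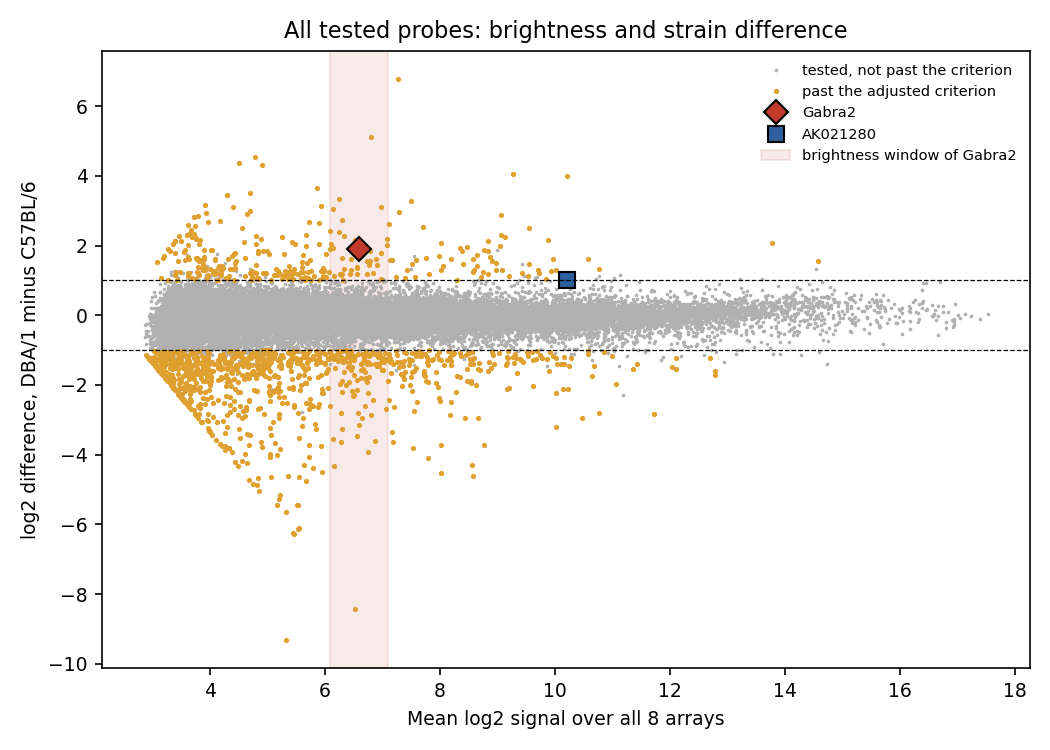
Difference between the strains (log2, DBA/1 minus C57BL/6) against the mean log2 signal over the 8 arrays for the 33111 tested probes. Orange points passed a fold change of 2 (dashed lines) with an adjusted p under 0.05, and the shaded band marks the 4514 probes within 0.5 log2 units of Gabra2. Gabra2 stands at 1.91, above nearly all probes of its band, while AK021280 stands on the upper dashed line.

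The difference passed the criterion under all 26 alternatives tried. Leaving out each mouse in turn gave values from 1.79 to 2.08. The lowest value, 1.25 (standard error 0.13, limma adjusted p = 0.000817), came from replacing the processed signal by the median spot signal with a normexp background correction and an offset of 50. These choices changed together, and which of them moved the value was not tested.

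**Figure D3:**
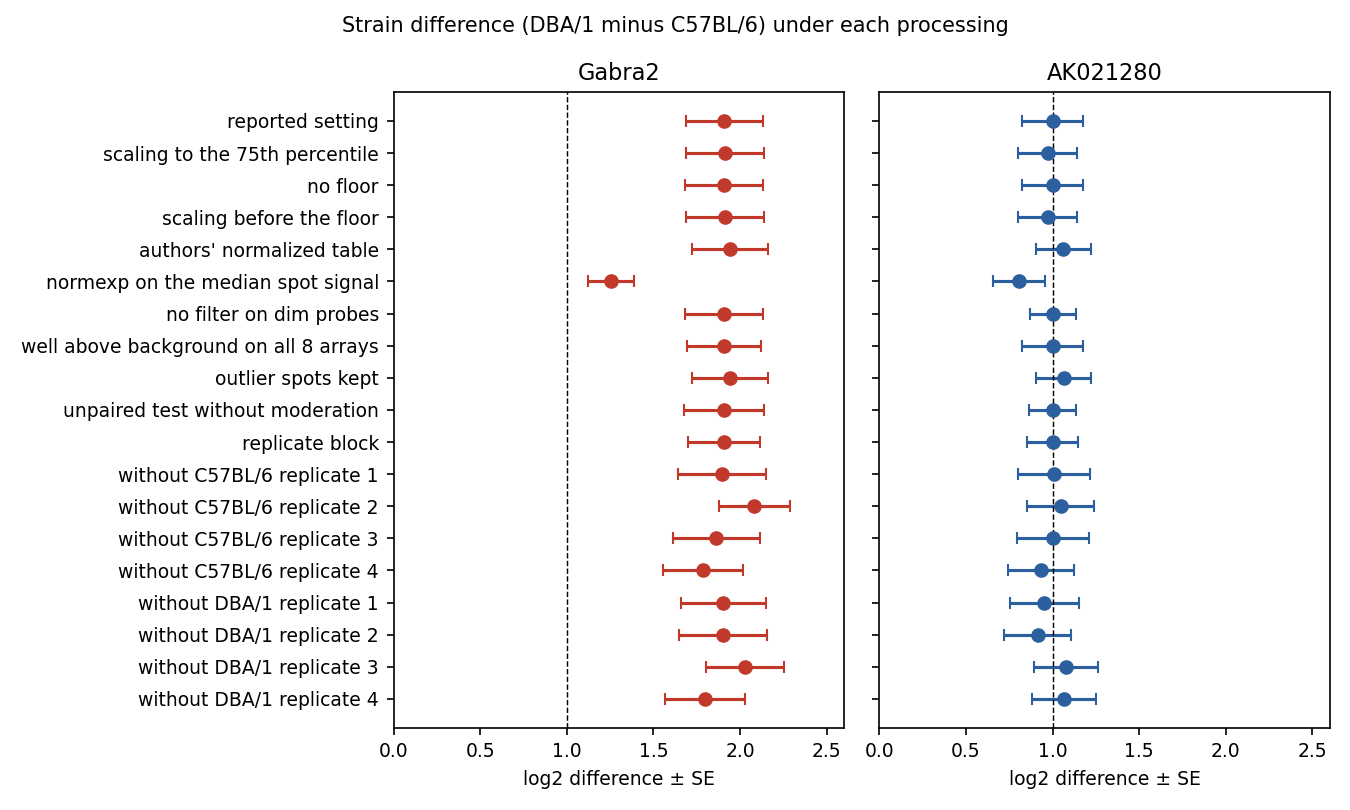
Strain difference (log2, DBA/1 minus C57BL/6) with its standard error under each way of processing, for Gabra2 (left) and AK021280 (right), with the dashed line at a 2-fold difference. Gabra2 stays to the right of the line throughout, between 1.25 and 2.08, whereas AK021280 lies on the line and crosses it, between 0.81 and 1.08.

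The row of an array on its slide cannot be told apart from the strain. The file headers give a pair of numbers for each array, read here as its row and column on the slide. So read, row 1 held C57BL/6 and row 2 DBA/1, with mice 1 to 4 in columns 1 to 4. The 8 positions all differed, as they would on 1 slide, but no slide number was read. The Gabra2 probe occupied the same spot, row 208 and column 102, on every array. Of the 69 tested probes within 5 rows and columns of it, 49 (71.0%) had a higher mean in DBA/1 mice, against 48.6% of all tested probes. Their median difference was 0.17 log2 units, against -0.01 over all tested probes, and the largest was 1.36. Of the 69, 5 (7.25%) were called in either direction, against 3.84% of all tested probes. The part of the spot's place in the Gabra2 difference was not tested.

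AK021280, listed as an intergenic lncRNA, is the listed transcript nearest to Gabra2. It lies on the same minus strand at chr5:70958563-70960393, and 663 bases separate it from the end of the listed Gabra2 transcript. In the RefSeq table of GRCm38.p6, however, its whole length falls inside the span of Gabra2, starting 171 bases within it. Whether its probe measures a separate lncRNA or a longer form of the Gabra2 transcript was not tested.

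Before normalization the strains overlapped for AK021280. Its processed signal was 887, 848, 950 and 1274 in C57BL/6 mice 1 to 4 and 1607, 1767, 848 and 1709 in DBA/1 mice 1 to 4. DBA/1 mouse 3, whose whole array was the dimmest, lay among the C57BL/6 mice (exact permutation test, p = 0.114). After quantile normalization the log2 signal was 9.74, 9.85, 9.73 and 9.54 in C57BL/6 mice and 10.86, 10.98, 10.51 and 10.50 in DBA/1 mice, in the same order, and the strains no longer overlapped.

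AK021280 was higher in DBA/1 mice by 1.00 on the log2 scale (standard error 0.18, 95% interval 0.61 to 1.39, limma adjusted p = 0.00451). Its fold change only just reached the limit of 2. It fell short of 2-fold under scaling to the 75th percentile (0.97 log2 units), under the normexp correction of the median spot signal (0.81), and without C57BL/6 mouse 4 (0.93), DBA/1 mouse 1 (0.95) or DBA/1 mouse 2 (0.91). Its adjusted p stayed between 0.00214 and 0.0211 over all 26 alternatives.

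Gabra2 and AK021280 did not differ between the strains by the same amount. Within a mouse, the log2 signal of Gabra2 minus that of AK021280 was -3.28, -3.43, -3.33 and -2.65 in DBA/1 mice 1 to 4, and -4.13, -3.69, -4.24 and -4.25 in C57BL/6 mice 1 to 4. These ranges did not overlap, and the strain difference was 0.91 log2 units larger for Gabra2 (exact permutation test, p = 0.0286). Levels of different probes cannot be set against each other, so only the change of this quantity between strains has meaning. With the normexp correction of the median spot signal the strain differences lay closer together, at 1.25 for Gabra2 and 0.81 for AK021280. Their gap was not tested there.

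Around Gabra2, the study's lists hold 12 transcripts that start on chromosome 5 within 10 Mb of it, Gabra2 and AK021280 included. The lists were chosen by the authors on these same arrays for a strain difference, so that members pass the criterion is no independent evidence and genes that did not differ are missing. All 12 were called, 5 higher and 7 lower in DBA/1 mice, beside the 3.84% of all tested probes called, and their median difference was -1.40 log2 units, against -0.01 over all tested probes. The strains did not overlap for any of the 12, as for 11.4% of the probes measured in all 8 mice. Of all 1194 listed probes, 323 were higher and 871 lower. For 6 of the 12, no array of the dimmer strain gave a signal well above background. Such a probe could only enter the test through the brighter strain, so its adjusted p is no support for a difference.

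Among the mRNAs, Ociad1, a protein of endosomes and mitochondria that starts 2.33 Mb from Gabra2, was well above background on all arrays. Its log2 signal was 10.32, 10.61, 10.45 and 10.07 in DBA/1 mice 1 to 4 and 9.10, 9.34, 9.06 and 8.73 in C57BL/6 mice 1 to 4, a difference of 1.31 (standard error 0.19, limma adjusted p = 0.00112). Lrrc66, which encodes a leucine-rich repeat protein, was well above background only in DBA/1 mice, at 4.90 ± 0.30 (SD, n = 4). It lay at the floor, without spread, in all C57BL/6 mice and was at least 3.84-fold higher in DBA/1 mice. This bound, and those below, set the brighter strain's mean against the dimmer strain's arrays, each at the higher of its own value and the lowest normalized value among probes well above background there. The bounds apply to these normalized values and not to other ways of processing. With the normexp correction of the median spot signal, the Lrrc66 difference was 0.60 log2 units and missed the limit of 2-fold.

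The other mRNAs were lower in DBA/1 mice. Zar1, known as a maternal factor of the oocyte, was at 7.89 ± 0.46 (SD, n = 4) for DBA/1 against 9.44 ± 0.30 (SD, n = 4) for C57BL/6, a difference of -1.55 log2 units (standard error 0.25, limma adjusted p = 0.00201). Rasl11b, a Ras-like small GTPase, gave no DBA/1 signal well above background and was at least 2.94-fold lower there. With the normexp correction its difference was -0.43 log2 units, short of 2-fold.

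The lncRNAs also moved in both directions. C330024D21Rik lay at the floor in all C57BL/6 mice and was at least 2.82-fold higher in DBA/1 mice. With the normexp correction its difference was 0.43 log2 units, short of 2-fold. Gm15847 was lower in DBA/1 mice by a difference of -2.01 log2 units with clear signal in both strains, at 6.47 ± 0.28 (SD, n = 4) against 8.48 ± 0.33 (SD, n = 4), and its limma adjusted p was 9.22e-05. For 2310040G07Rik, antisense within an intron of Ppat, the difference was -2.90 log2 units, with 1 of 4 DBA/1 arrays well above background. Its DBA/1 values of 3.06 to 3.23 lay near background, and the normexp correction gave -0.93 log2 units, short of 2-fold. Tmem33 and Ociad2, each named for the coding gene whose exons the listed lncRNA overlaps, were both lower in DBA/1 mice, Tmem33 at least 2.34-fold and Ociad2 at least 1.69-fold. The normexp correction gave -0.38 log2 units for Tmem33 and -0.16 for Ociad2, both short of 2-fold. Gm15830, antisense to Hopx, was at least 2.23-fold lower. It entered the test through C57BL/6 mice only, so its call is no support for a difference. That call was also lost without a filter on dim probes or without moderation. Its difference with the normexp correction was -0.38 log2 units, short of 2-fold. Neither the listed mRNAs nor the listed lncRNAs shared 1 direction, and unlisted neighbours of Gabra2 were not analysed.

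**Figure D4:**
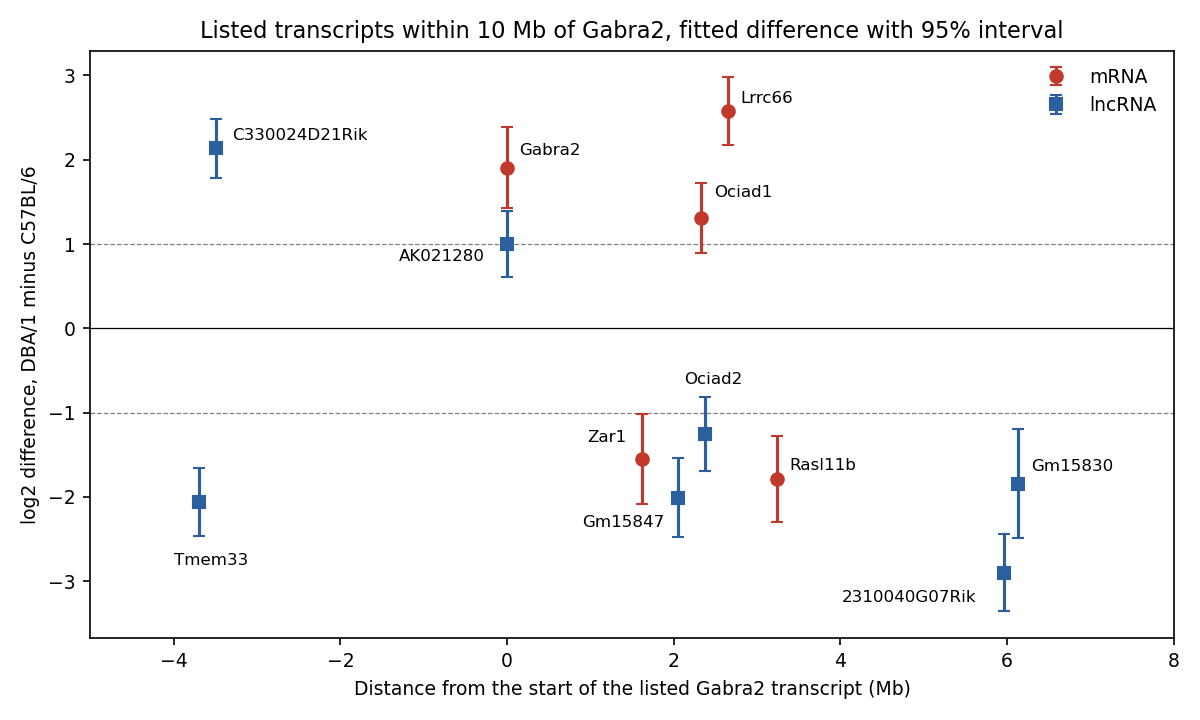
Strain difference (log2, DBA/1 minus C57BL/6) of the 12 listed transcripts within 10 Mb, against the distance of their start from that of the listed Gabra2 transcript. Bars are the fitted 95% intervals, red circles are mRNAs, blue squares are lncRNAs, and dashed lines mark a 2-fold difference. Of these, 5 lie above 0 and 7 below, and for the 6 transcripts not above background in the dimmer strain the plotted value depends on the floor.

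The count depended on dim probes. Among the 12, 5 were well above background on all 8 arrays, and all 5 passed when only such probes were tested. With the normexp correction of the median spot signal, 4 of 12 passed. Without C57BL/6 mouse 4 it was 7 of 12, and 11 of 12 when the probes tested on all 8 arrays were kept.

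Gabra2 is also 1 of 7 genes, measured by 8 probes, that the study groups as neuroactive ligands and receptors. This list was likewise chosen on these arrays, from transcripts higher in DBA/1 mice, so its direction is fixed by the choice. All 8 probes had higher means in DBA/1 mice, with a median difference of 1.30 log2 units, and 6 were called, among the 0.888% of tested probes called in that direction. For 6 of the 8 every DBA/1 mouse lay above every C57BL/6 mouse, as for 4.17% of the probes measured in all 8 mice.

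Among the receptors, Ptgfr, which binds prostaglandin F2 alpha, was at 5.48, 5.68, 6.37 and 5.76 log2 in DBA/1 mice 1 to 4 and at 3.20, 3.94, 3.95 and 4.06 in C57BL/6 mice 1 to 4, a difference of 2.03 (standard error 0.25, limma adjusted p = 0.000264). It was well above background in 3 of 4 C57BL/6 mice. Htr5b, a serotonin receptor, was at 7.77, 6.90, 8.29 and 7.83 in DBA/1 mice and at 5.68, 7.14, 6.36 and 5.14 in C57BL/6 mice. Here DBA/1 mouse 2 lay below C57BL/6 mouse 2, so the strains overlapped, and the difference of 1.62 (standard error 0.40, limma adjusted p = 0.0358) lost its call when any mouse but number 2 of either strain was left out, with adjusted p up to 0.111. Its exact permutation p was 0.0571.

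Grin3a, an NMDA receptor subunit, had a pair of probes with different brightness and like differences. The dimmer was at 4.48 ± 0.38 (SD, n = 4) for DBA/1 and 3.40 ± 0.32 (SD, n = 4) for C57BL/6 and was called, with a difference of 1.08 (limma adjusted p = 0.0153), but not without C57BL/6 mouse 2 or 4 or DBA/1 mouse 4. The brighter, at 7.54 ± 0.35 (SD, n = 4) and 6.55 ± 0.12 (SD, n = 4), differed by 0.99 and missed the limit of 2-fold, although its adjusted p by limma was 0.0103. Ptafr, the receptor for platelet-activating factor, was dim, well above background in 2 of 4 C57BL/6 mice, and differed by 1.21 (standard error 0.25, limma adjusted p = 0.0128), a call lost without C57BL/6 mouse 1 (adjusted p = 0.0503).

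Among the ligands, Cort, which encodes the neuropeptide cortistatin, was at 5.37 ± 0.16 (SD, n = 4) for DBA/1 and 4.09 ± 0.25 (SD, n = 4) for C57BL/6, a difference of 1.28 (standard error 0.18, limma adjusted p = 0.000918). Pyy, the gut and brainstem peptide YY, differed by 1.32 with a wider spread (standard error 0.35), its strains overlapped, and its limma adjusted p of 0.051 missed the threshold. Of the 8 probes, Gabra2 had the second largest difference and the smallest adjusted p in the reported fit. Cort had a smaller adjusted p without a filter on dim probes or without moderation, and Ptgfr when some single mice were left out. Besides Gabra2, Cort and Ptgfr were called without moderation or without a filter on dim probes, where 3 of 8 passed.

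**Figure D5:**
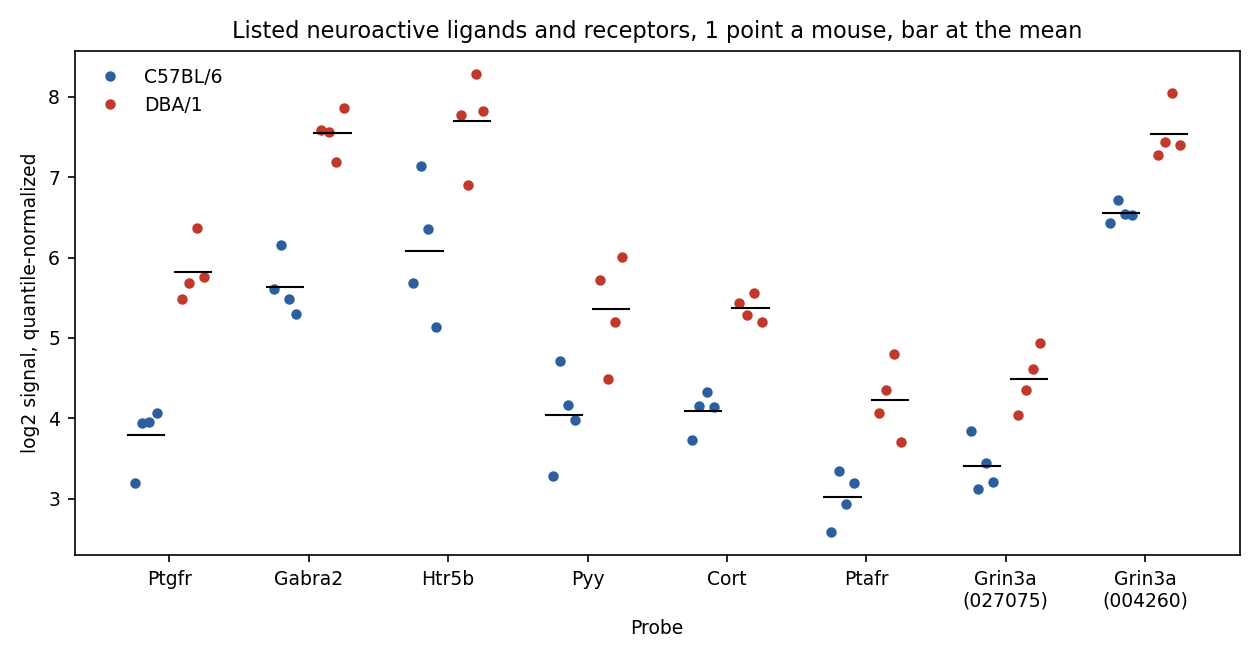
Quantile-normalized log2 signal of the 8 probes of the neuroactive ligands and receptors, 1 point a mouse and a bar at the mean, C57BL/6 in blue and DBA/1 in red, ordered by the strain difference. The points of the strains are apart for 6 probes, Gabra2 among them, and overlap for Htr5b and Pyy. Heights of different probes cannot be compared.

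The probes most like Gabra2 over the 8 mice were sought among the 1168 other listed probes measured in all 8 mice. By Pearson's r over the 8 log2 values they were a lncRNA overlapping Mettl3 (0.99), then Cuedc1, Gm26578, AK087340 and Tcte3 (each 0.99). Since the listed probes were picked for a strain difference, such values mostly restate it: the median r over the 318 of them with a higher mean in DBA/1 mice was 0.91. AK021280 had an r of 0.94 and ranked 86th.

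When each mouse was instead taken as its deviation from its strain's mean, the same lncRNA overlapping Mettl3 came first again (r = 0.95). It was followed by Dynll1 (0.91), Olfr1098 (0.91), Tnfsf12Tnfsf13 (0.90) and Spata24 (0.90), all 4 of which were lower in DBA/1 mice. AK021280 followed Gabra2 less closely from mouse to mouse (r = 0.37, rank 391). In DBA/1 mouse 4, where Gabra2 was highest, AK021280 was at 10.50, nearly the same as the 10.51 of DBA/1 mouse 3. In the authors' normalized values mouse 4 stood above mouse 3, at 10.72 against 10.40. Over the 31871 other tested probes measured in all 8 mice, the 5th percentile of such correlations was -0.61 and the 95th 0.68. These are descriptions over 8 arrays that were normalized together.

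Probes are named only in the study's lists, picked for a strain difference, so markers that did not differ are missing. Of 26 marker genes for the cell types and regions of the brain, 2 had a named probe, both of them genes of the serotonergic neurons of the raphe in the brainstem. Tph2, which makes serotonin in these neurons, was well above background on all arrays, at 11.39 ± 0.21 (SD, n = 4) for DBA/1 and 9.76 ± 0.65 (SD, n = 4) for C57BL/6. Its difference of 1.63 log2 units (standard error 0.29, limma adjusted p = 0.00422) ran in the direction of Gabra2 and lost its call without a filter on dim probes (adjusted p = 0.0772) or without moderation (adjusted p = 0.0677). For Tph2, C57BL/6 mouse 2 was at 10.73 log2 and the other C57BL/6 mice at 9.38 to 9.53. A lncRNA probe overlapping Slc6a4, the serotonin transporter, was at 4.63 ± 0.40 (SD, n = 4) in DBA/1 and at 3.05 ± 0.51 (SD, n = 4) in C57BL/6 mice, where 1 of 4 arrays was well above background. C57BL/6 mouse 2 was also the highest of its strain for Gabra2, and likewise for AK021280, Ociad1 and Htr5b. The DBA/1 mice did not share this order. Gabra2 was highest in DBA/1 mouse 4, where Tph2 was lowest (11.11). It was lowest in DBA/1 mouse 3, where the Slc6a4 probe was highest (5.01). The part of the cells in the dissected tissue in these differences was not tested.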

How the data were processed

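Brainstem RNA, freed of rRNA and labelled by random priming along the whole transcript, was hybridized to Arraystar mouse lncRNA V3.0 arrays. Per the file headers, Agilent Feature Extraction 11.0.1.1 made the deposited intensities, background-subtracted and detrended within each array and not normalized between arrays, with spot and background signals and flags ("other" values). The authors deposited log2 values after quantile normalization in GeneSpring. These differed from the values used here by at most 0.0885 for Gabra2, since outlier spots were left out here.

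Here, control and outlier spots were removed, spots of 1 probe averaged, values under 5 set to 5, and log2 values quantile-normalized. Of 33267 probes of the authors' table that were bright enough, 33111 could be tested. Strains were compared by lmFit and eBayes (limma 3.58.1, R 4.3.3) without a block, with Benjamini-Hochberg adjustment over all tested probes. Single values were compared by two-sided exact permutation tests in scipy 1.17.1. The fit was tested on simulated data. Depth has no count on an array, and 4 mice per strain limit the precision.

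Positions, sequences and gene names came from the study's supplementary lists, of whose 433 mRNA probes 424 matched RefSeq (GRCm38.p6) by accession, 418 of them overlapping their gene there. The authors' fold changes and p-values in those lists were not used. Named genes were Gabra2, AK021280, the listed transcripts within 10 Mb, the study's neuroactive list, the GABA and marker genes with a named probe, and the 5 probes most correlated with Gabra2 in each of 2 ways. Members and lists were chosen with earlier results of these data known.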

Additional observations from a re-analysis of the deposited data

Results flagged for a closer look

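In 60 groups of 4 mice (30 named probes in each strain), the highest or lowest mouse was compared with the others by Dixon's criterion, which flags about 1 in 20 groups by chance. Gabra2 and AK021280 had no such mouse. For Ptgfr, C57BL/6 mouse 1 was at 3.20 on the log2 scale and the other C57BL/6 mice at 3.94 to 4.06. For Tph2, C57BL/6 mouse 2 was at 10.73 and the others at 9.38 to 9.53.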

How the results depend on the processing

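The Gabra2 difference kept its direction and its call under all 26 alternatives, from 1.25 to 2.08 log2 units, with adjusted p from 3e-05 to 0.0102, the largest with an unmoderated test. Leaving out a mouse gave 1.79 to 2.08. Its rank among equally bright probes stayed between 0.606% and 1.31% over 17 alternatives. The AK021280 difference kept its direction but fell below 2-fold in 9 of 26: 0.97 under scaling to the 75th percentile, with the floor set before or after scaling, 0.81 with normexp, and 0.91 to 1.08 over the mice left out (0.93 without C57BL/6 mouse 4, 0.95 without DBA/1 mouse 1 and 0.91 without DBA/1 mouse 2, also with the tested probes kept).

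The count of called probes, 1270, became 329 with normexp, 633 for probes well above background on all arrays, 567 at a fold change of 3, and 838 to 1375 over the mice left out (838 without C57BL/6 mouse 2; 1113 to 1415 with the tested probes kept). Of the 12 chromosome 5 transcripts, 4 passed with normexp, 5 with the stricter filter, and 7 to 10 over the mice left out (7 without C57BL/6 mouse 4; 11 to 12 with the tested probes kept). Of the 8 neuroactive probes, 2 passed with normexp, 3 without a filter, 3 with the stricter filter, 3 without moderation, and 4 to 8 over the mice left out. The normexp alternative changed the input to the median spot signal, the background correction and the offset together, and the stricter filter tests fewer probes. The causes were not tested.

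With the replicate number as a block, Gabra2 had an adjusted p of 0.00141 and AK021280 of 0.00563, and 1325 probes, 12 of the chromosome 5 and 5 of the neuroactive probes passed, Htr5b no longer among them (adjusted p = 0.0703). The numbers were given here by sample order within each strain, and the sample titles carry other numbers. The labels state no shared origin for same-numbered mice, but these mice lay in the same array column, as read here. They deviated together with r of 0.38, 0.02, 0.13 and 0.35, and 6 of 8 correlated best with their own number. The part of the column in this was not tested.

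Limits were 4 mice per strain, 1 array row, as read here, for each strain, and 1 probe for Gabra2.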
